A study of Mus musculus with 8 samples.

Results

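The 6 genes described here encode subunits of the NMDA receptor: Grin1, Grin2a, Grin2b, Grin2c, Grin2d and Grin3a. They were picked by gene symbol, with earlier results of these data known, and all 6 were found among the 19201 genes of the hippocampal RNA-seq table and among the 14504 genes tested. The libraries came from wild-type C57BL/6 mice, titled control, and from Mbd2-/- mice on that background, which lack methyl-CpG-binding domain protein 2, a reader of DNA methylation. Each group had 4 libraries, and each library pooled the bilateral hippocampi of 2 mice aged 10 to 12 weeks, bred as littermates from heterozygous parents. The deletion is constitutive, so every cell of the animal carries it from conception. The comparison asks how loss of Mbd2 alters hippocampal RNA levels.

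NMDA receptors are glutamate-gated cation channels that pass calcium and, in their common form, open when glutamate and a co-agonist, glycine or D-serine, are bound while the membrane is depolarized. Every receptor holds GluN1, the product of Grin1, which binds the co-agonist, together with GluN2 subunits, which bind glutamate and set conductance, kinetics and magnesium block, or with GluN3 subunits, which bind glycine and give receptors that need no glutamate when GluN2 is absent. In the adult hippocampus GluN2A and GluN2B are the main GluN2 subunits of principal neurons, and their balance shifts towards GluN2A during postnatal development. The receptor is best known there for its part in synaptic plasticity and spatial memory.

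The libraries held between 8087750 and 23790825 reads on genes. Reads on Mbd2, of which this allele leaves the first exon intact, gave normalized counts (reads divided by the size factor of the library) of 295, 363, 371 and 354 in wild-type and 244, 240, 339 and 217 in Mbd2-/- libraries, and the groups overlapped (log2 fold change -0.43, limma adjusted p = 0.0174). Mbd2-/- replicate 4 stood apart from the other libraries of its genotype. In Mbd2-/- replicates 1 to 3 the deviation of a gene from its wild-type mean fell with transcript length, with Spearman correlations of -0.48, -0.43 and -0.48 across 14154 genes of 1 library each, while in replicate 4 the correlation was -0.10 and in wild-type libraries it lay between -0.07 and 0.06. Among marker lists, all 14 choroid plexus genes were higher in Mbd2-/- (summed normalized count 24386 to 26050 in wild-type, 46938 to 53571 in Mbd2-/-) and 12 of 14 thalamus genes were lower (7587 to 7792 against 5217 to 5970). Hippocampal excitatory neuron genes were present in every library, with a sum of 33472 to 33703 in wild-type and 29157 to 33536 in Mbd2-/- libraries, and 3 of 14 were lower and 3 higher. Oligodendrocyte genes, 4 of 9 of which were higher and 0 lower, had sums of 78061 to 79163 in wild-type and 91452 to 97914 in Mbd2-/- libraries, which did not overlap. By the same test 10.0% of all genes were lower and 12.0% higher. No marker of any list was at 0 in every library, and the part of these lists in the subunit results was not tested.

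All 6 genes lie on the minus strand, given here in mm9 coordinates. Grin1 spans chr2:25146701-25174707, Grin2a chr16:9577803-9995014, Grin2b chr6:135679844-136123529, Grin2c chr11:115110483-115128557, Grin2d chr7:53087253-53126298 and Grin3a chr4:49674483-49858616. Their longest annotated transcripts run from 4276 bases for Grin1 to 7491 bases for Grin3a. Grin1 is overlapped on the other strand by the non-coding gene Grin1os, and whether strand was used in counting is not given in the sources used here. Grin1os had 14 to 51 reads per library where Grin1 had 2142 to 6852. Grin2b is also overlapped on the other strand, by Gm14329, Gm14330, Gm17614 and a miRNA gene, and Grin2c by a miRNA gene. Grin3a holds the protein-coding gene Ppp3r2 and the pseudogene Gm12459 on its own strand, so that strand could not separate their reads. How reads in these overlaps were assigned is not given in the sources used here, and the values of these members are uncertain to that extent.

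The GluN2 genes are related in sequence, which matters for telling their reads apart. No pair of the 6 genes shared a stretch as long as a 100-base read in any annotated protein-coding transcript. As an example of such a run, the 32 bases shared by Grin2c and Grin2d are printed. Capitals mark the shared bases, which lie in the coding sequence, with 15 flanking bases on each side.
Grin2c (shared with Grin2d): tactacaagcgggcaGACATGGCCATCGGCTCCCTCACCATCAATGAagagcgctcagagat
Grin2d (shared with Grin2c): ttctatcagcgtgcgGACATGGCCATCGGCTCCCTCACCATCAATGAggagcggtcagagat

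The protein missing in Mbd2-/- mice binds methylated CpG, so the CpG content at the start sites was described. RefSeq promoter sequences, from 250 bases before to 50 bases after the start, were at hand for 3 members, Grin1, Grin2c and Grin2d. Their 300 bases held 33, 22 and 12 CpG, where the median of 32851 promoters was 7. The RefSeq start of Grin2d lies inside the gene span given above, so its window is not at the end of that span, unlike those of Grin1 and Grin2c. Of all promoters, 91.4% had fewer CpG than that of Grin1, 76.9% fewer than that of Grin2c and 60.4% fewer than that of Grin2d. The GC box GGGCGG, searched on both strands, occurred once in Grin1, 3 times in Grin2c and not in Grin2d, and 35.7% of promoters held at least 1. The bases before the start are printed for Grin1 and Grin2c, the members with the most CpG, with each CpG in capitals. The first lies at chr2:25174708-25174957 and the second at chr11:115128558-115128807, both read on the minus strand of mm9.
Grin1: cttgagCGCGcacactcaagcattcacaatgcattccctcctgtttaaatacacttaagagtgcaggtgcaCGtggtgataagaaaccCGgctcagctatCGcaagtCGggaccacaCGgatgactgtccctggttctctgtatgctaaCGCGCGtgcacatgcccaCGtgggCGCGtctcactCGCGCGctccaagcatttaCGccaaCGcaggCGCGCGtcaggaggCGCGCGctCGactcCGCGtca
Grin2c: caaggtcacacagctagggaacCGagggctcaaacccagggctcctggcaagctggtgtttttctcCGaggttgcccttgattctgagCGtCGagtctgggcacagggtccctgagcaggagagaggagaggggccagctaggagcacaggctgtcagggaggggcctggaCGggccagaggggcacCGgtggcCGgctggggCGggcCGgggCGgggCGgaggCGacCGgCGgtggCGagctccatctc
The CpG count of a start site says nothing about whether its CpG were methylated in these mice, which was not analysed here.

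In Mbd2-/- hippocampus 5 genes of the family were lower and 1 was not called. Of the means of these genes, that of Grin2b fell by 14.6%, Grin1 fell by 15.5%, Grin2a fell by 17.3%, Grin3a fell by 17.6% and Grin2d fell by 30.1%, whereas Grin2c had a mean 13.0% above wild-type that did not pass the test. The test was limma on log2(normalized count + 1), adjusted over all 14504 genes, and a gene was called at an adjusted p under 0.05. Of all genes tested, 22.0% were called, 10.0% as lower and 12.0% as higher, against 5 of 6 members called lower and 0 higher. The libraries of the genotypes did not overlap for 3 of 6 members, and for 23.6% of all genes. The median log2 fold change was -0.26 over the members and -9.1e-05 over all genes tested. In RNA from whole hippocampi, fewer cells of a type and less RNA per cell cannot be told apart.

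**Figure D1:**
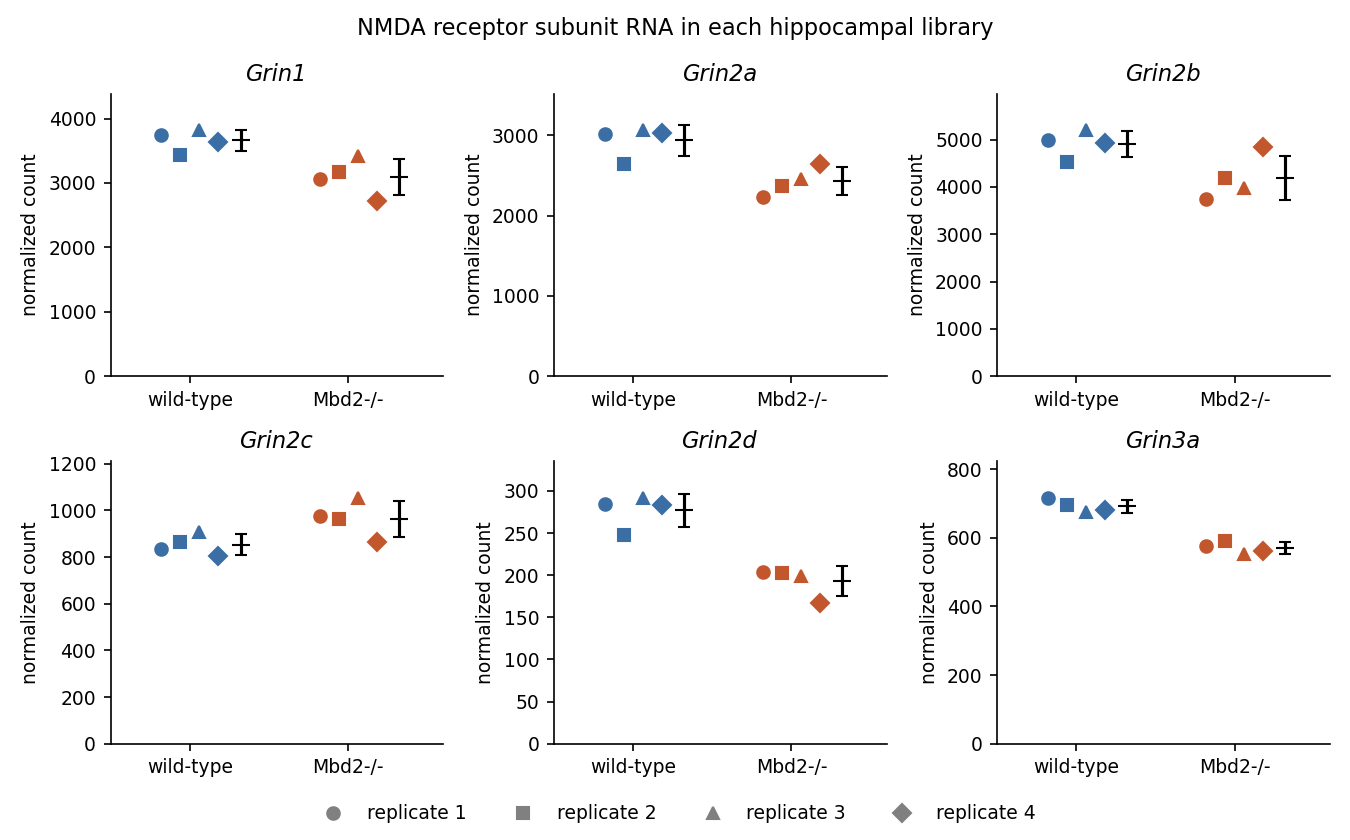
Normalized count of each subunit gene (vertical axes from 0) in each of the 4 wild-type and 4 Mbd2-/- libraries. Marker shapes give the replicate, and bars give the mean and SD of each genotype. Grin1, Grin2d and Grin3a show no overlap between genotypes, and Mbd2-/- replicate 4 (diamond) is the lowest of its group for Grin1 and the highest for Grin2b.

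Grin1, the subunit that every NMDA receptor needs, had normalized counts of 3743, 3441, 3816 and 3639 in wild-type and 3067, 3166, 3414 and 2726 in Mbd2-/- libraries. Each Mbd2-/- library lay below each wild-type library, and replicate 4 was the lowest. The mean fell from 3660 ± 163 to 3093 ± 285 (SD, n = 4), a log2 fold change of -0.25 (SE 0.06, limma adjusted p = 0.0109). Without Mbd2-/- replicate 4 the log2 fold change was -0.19 (limma adjusted p = 0.00250). It kept its call in all 19 alternatives run.

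Grin2a encodes GluN2A, whose receptors close faster than those with GluN2B. Its normalized counts were 3017, 2642, 3064 and 3029 in wild-type and 2236, 2371, 2456 and 2650 in Mbd2-/- libraries. The groups met at a single point, where wild-type replicate 2 lay just below Mbd2-/- replicate 4. The mean fell from 2938 ± 199 to 2428 ± 174, a log2 fold change of -0.27 (SE 0.06, limma adjusted p = 0.00543), and -0.32 without Mbd2-/- replicate 4 (limma adjusted p = 3.27e-05).

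Grin2b encodes GluN2B, which carries a long cytoplasmic tail that binds CaMKII. It had normalized counts of 4997, 4524, 5197 and 4920 in wild-type and 3754, 4185, 3983 and 4846 in Mbd2-/- libraries. Mbd2-/- replicate 4 lay inside the wild-type range, and the other Mbd2-/- libraries lay below it. The mean went from 4909 ± 282 to 4192 ± 470, a log2 fold change of -0.23 (SE 0.07, limma adjusted p = 0.0232). The call of Grin2b was the least stable of the 5. It was kept without wild-type replicate 2 or without Mbd2-/- replicate 4 (log2 fold change -0.30, limma adjusted p = 2.01e-05). It was lost when any one of the other 6 libraries was left out. The log2 fold change then lay between -0.23 and -0.18, with limma adjusted p between 0.0501 and 0.0928. Removing the trend on transcript length, as described below, also ended the call (-0.11, limma adjusted p = 0.137).

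Grin2d encodes GluN2D, known for weak magnesium block and slow closing and, in the hippocampus, mainly from interneurons. Its normalized counts were 285, 248, 292 and 284 in wild-type and 204, 203, 199 and 167 in Mbd2-/- libraries. The 2 sets were far apart, with 3 Mbd2-/- libraries close together and replicate 4 below them. The mean fell from 277 ± 19.9 to 193 ± 17.6, a log2 fold change of -0.52 (SE 0.09, limma adjusted p = 0.000868), and -0.45 without replicate 4 (limma adjusted p = 0.000134). This was the largest change among the members. Of 10 interneuron marker genes 3 were lower and 5 higher, where 10.0% and 12.0% of all genes were, with a summed normalized count of 13192 to 13901 in wild-type and 12330 to 14477 in Mbd2-/- libraries. The list was divided: Gad1 and Gad2, which encode the enzymes that make GABA, were among the lower genes (log2 fold changes -0.21 and -0.28), Slc32a1, the vesicular GABA transporter gene, was at -0.23 and not called, and the neuropeptide genes Sst and Npy were among the higher ones (0.40 and 0.72). The part of these markers and of the lower thalamus markers in the Grin2d result was not tested.

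Grin2c encodes GluN2C, best known from cerebellar granule cells. Its normalized counts were 833, 865, 908 and 805 in wild-type and 976, 961, 1054 and 866 in Mbd2-/- libraries. Mbd2-/- replicates 1 to 3 lay above every wild-type library, while replicate 4 fell within the wild-type range. The means were 853 ± 44.3 and 964 ± 77.0, a log2 fold change of 0.17 with a 95% interval of 0.035 to 0.31, and the gene was not called (limma adjusted p = 0.0671). Without Mbd2-/- replicate 4 it was called higher (log2 fold change 0.23, limma adjusted p = 0.00270). Of 10 cerebellum markers 6 were tested. Cbln1 and Zic2 were lower (log2 fold changes -0.60 and -0.37) and En2 was higher (2.42, from a mean of 12.5 to 71.9). The sums were 1851 to 1987 in wild-type and 1848 to 1978 in Mbd2-/- libraries. Most of each sum was Calb1, with means of 1308 and 1311, so the sum says little about the other markers. Astrocyte markers were 5 of 9 higher and 1 lower, with sums of 107860 to 110313 and 117687 to 141345. Most of each sum was Slc1a2, with means of 86064 and 97196, which was not called (limma adjusted p = 0.0525). Of all genes tested, 10.0% were called lower and 12.0% higher. The part of both marker lists in the Grin2c values was not tested.

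Grin3a encodes GluN3A, a glycine-binding subunit that lowers calcium flow and is most abundant in young animals. Its normalized counts were 716, 694, 675 and 681 in wild-type and 577, 591, 551 and 560 in Mbd2-/- libraries. The libraries of each genotype were tightly grouped and did not overlap, and replicate 4 did not stand apart. The mean fell from 692 ± 18.2 to 570 ± 17.5, a log2 fold change of -0.28 (SE 0.06, limma adjusted p = 0.00308). The value was -0.27 without replicate 4 (limma adjusted p = 6.14e-04). With the trend on transcript length removed, as described below, it was -0.16 and not called (limma adjusted p = 0.0867). Grin3b, the other GluN3 gene and no member of the set, was near the limit of the filter with 11.7 to 17.3 in wild-type and 8.65 to 22.3 in Mbd2-/- libraries, and was not called (limma adjusted p = 0.694).

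**Figure D2:**
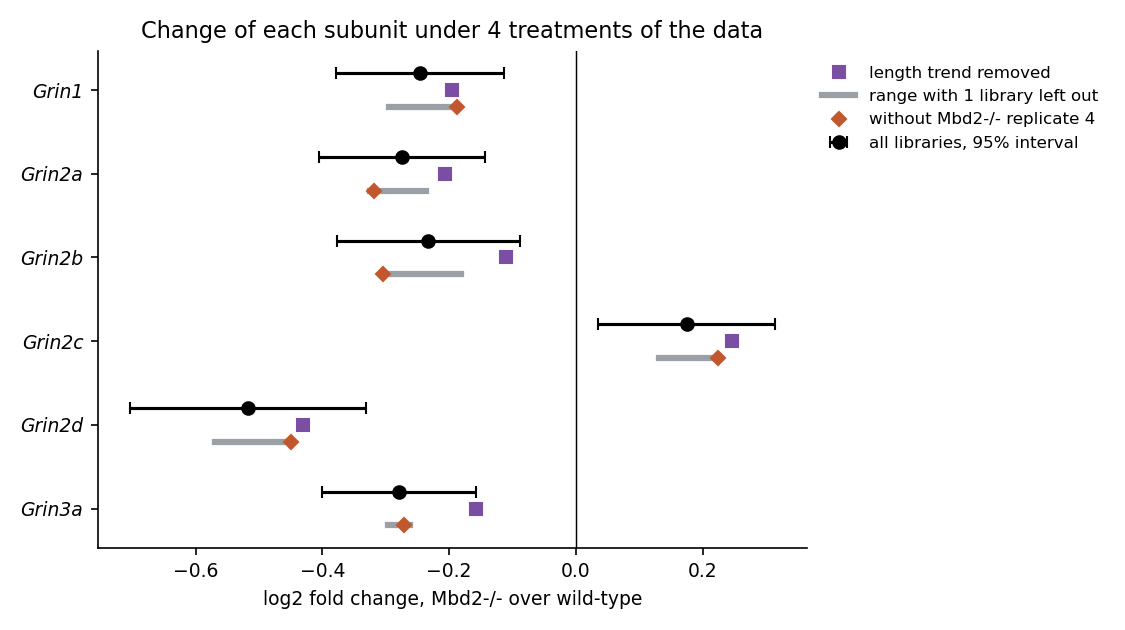
Log2 fold change of each subunit gene, Mbd2-/- over wild-type (horizontal axis), with all libraries (bar, 95% interval), with the length trend removed, without Mbd2-/- replicate 4 and as the range over leaving out each library. The sign of each gene is the same throughout, and Grin2b moves most between them, from -0.30 to -0.11.

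The longest transcripts of the members have 4276 to 7491 bases, and transcript length moved with genotype in 3 of the 4 Mbd2-/- libraries. When a lowess trend on log transcript length was subtracted from each library, 3 members were called lower, where 6.76% of 14154 genes were, and 1 was called higher, where 8.05% were. Grin1 (log2 fold change -0.20, limma adjusted p = 0.0442), Grin2a (-0.21, limma adjusted p = 0.0153) and Grin2d (-0.43, limma adjusted p = 0.00377) kept their calls. Grin2b (-0.11, limma adjusted p = 0.137) and Grin3a (-0.16, limma adjusted p = 0.0867), which have the longest transcripts of the set, lost theirs. Grin2c was called higher (0.25, limma adjusted p = 0.0203). Without Mbd2-/- replicate 4, 5 members were called lower and 1 higher, where 17.6% and 17.9% of all genes were. The part of transcript length in the lower values was not tested beyond this.

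**Figure D3:**
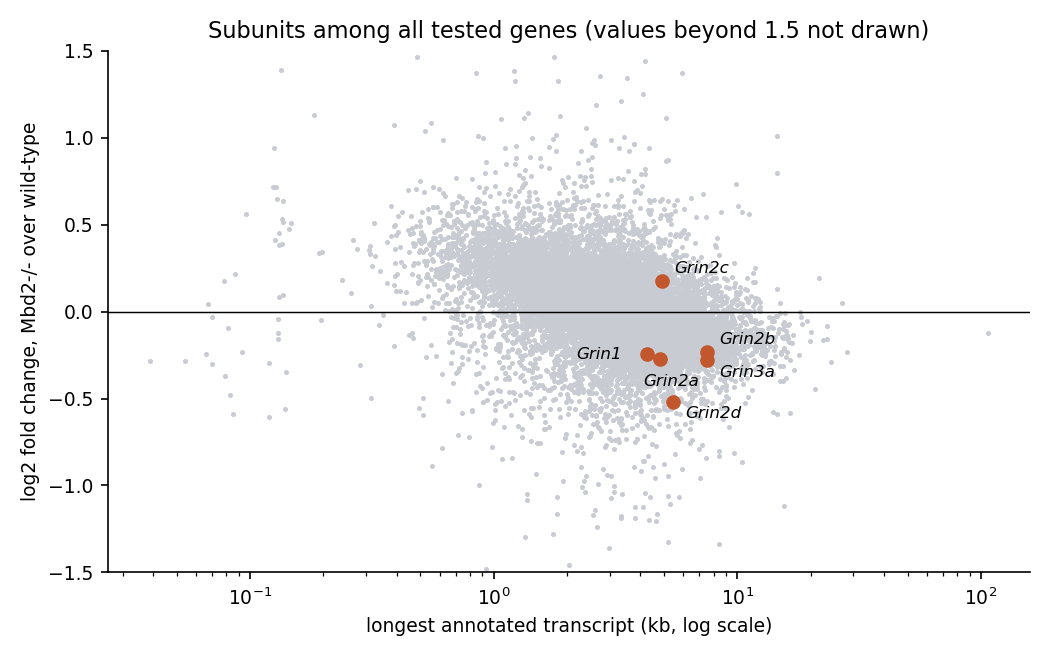
Log2 fold change, Mbd2-/- over wild-type (vertical axis), against the longest annotated transcript in kb (horizontal log axis), for all genes tested (grey) and the 6 subunit genes (orange). Longer transcripts lie lower as a group, and Grin2c lies above 0 while the other 5 subunits lie below it.

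Levels of different genes can be compared only per length. Divided by the longest transcript, wild-type levels per kb were 856 ± 38.1 for Grin1, 656 ± 37.7 for Grin2b, 610 ± 41.2 for Grin2a, 174 ± 9.05 for Grin2c, 92.4 ± 2.44 for Grin3a and 51.0 ± 3.67 for Grin2d (SD, n = 4). In wild-type libraries Grin2b and Grin2a overlapped, with 604 to 694 and 548 to 636, and no other neighbours in this order did. The order held with coding length in place of transcript length, except that Grin2b then lay well above Grin2a, at 1104 against 669. With the union of all annotated exons, which is much longer for Grin1, the order began with Grin2b at 601, Grin2a at 555 and Grin1 at 377, and it ended with Grin2d at 47.2 and Grin3a at 43.8, whose libraries overlapped. The sum of the 6 levels per kb of the longest transcript was 2272 to 2552 in wild-type and 1997 to 2166 in Mbd2-/- libraries.

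Within this sum, the shares of the less abundant GluN2 genes lay apart between genotypes. Grin2c made up 6.84%, 7.78%, 7.27% and 6.72% of the summed level per kb in wild-type and 9.98%, 9.33%, 9.94% and 8.35% in Mbd2-/- libraries. Grin2d made up 2.11%, 2.01%, 2.10% and 2.14% in wild-type and 1.88%, 1.78%, 1.69% and 1.45% in Mbd2-/- libraries. These shares did not overlap between genotypes, and they are given as a description, since the shares of a library add to 100 and cannot move independently. The shares of the other 4 genes overlapped. Grin1 held 35.1% ± 0.259 in wild-type and 34.5% ± 3.02 in Mbd2-/-, Grin2b 26.9% ± 0.250 and 26.7% ± 2.71, and Grin2a 25.0% ± 0.661 and 24.0% ± 1.30. Much of the spread in Mbd2-/- came from replicate 4, where Grin1 was at 30.1% and Grin2b at 30.6%, while the other 3 Mbd2-/- libraries had 35.2% to 36.9% and 24.6% to 26.6%. The Grin2b to Grin1 ratio of normalized counts was 1.78 in that library and 1.17 to 1.36 in the other 7.

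**Figure D4:**
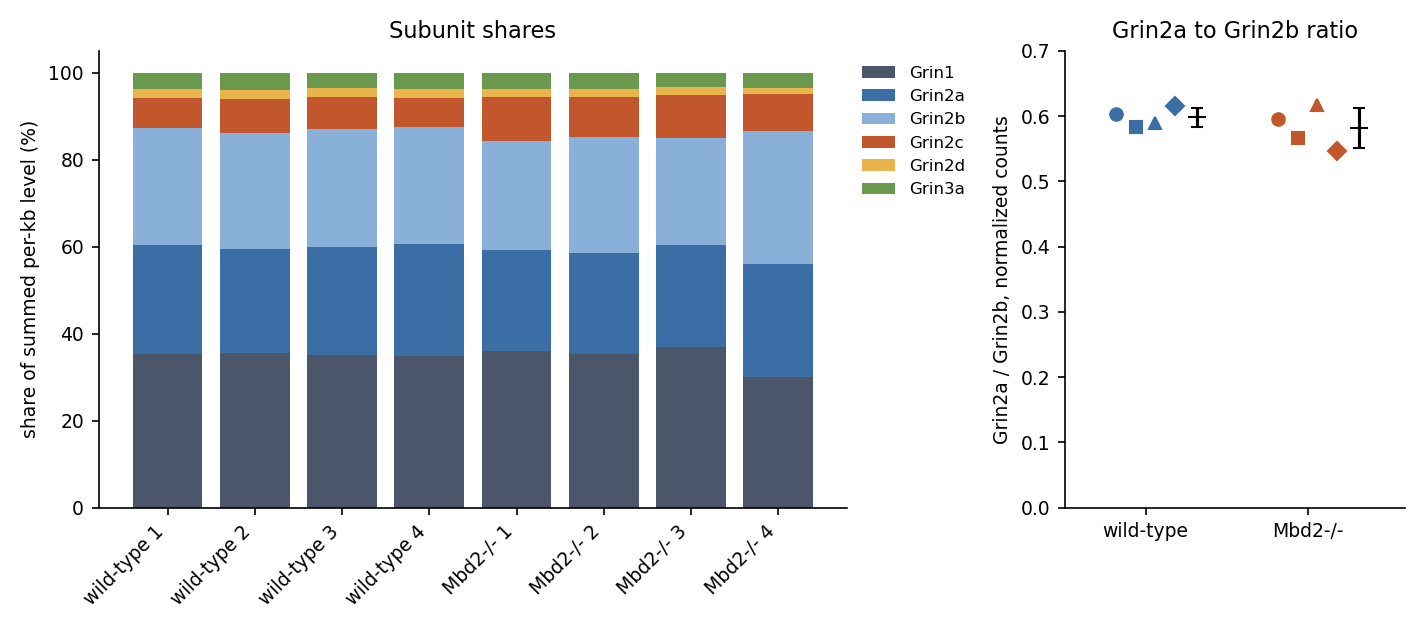
Share of each subunit gene in the summed level per kb of transcript (percent), and the Grin2a to Grin2b ratio of normalized counts, in each library (bars, mean and SD). Grin2c takes 6.72% to 7.78% in wild-type and 8.35% to 9.98% in Mbd2-/- libraries, and the Grin2a to Grin2b ratio overlaps between genotypes.

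A difference in the balance of GluN2A to GluN2B RNA did not pass the test. The Grin2a to Grin2b ratio of normalized counts was 0.604, 0.584, 0.590 and 0.616 in wild-type and 0.596, 0.567, 0.617 and 0.547 in Mbd2-/- libraries. The highest and the lowest ratio both occurred in Mbd2-/- libraries. On the log2 scale the difference was -0.04 (SE 0.04, exact two-sided permutation test, p = 0.4, where the smallest p possible is 0.0286). Without Mbd2-/- replicate 4 it was -0.01 (exact permutation test, p = 0.8), and with the length trend removed it was -0.10 (exact permutation test, p = 0.0571). The Grin2c to Grin2d ratio was 2.84 to 3.50 in wild-type and 4.73 to 5.29 in Mbd2-/- libraries, which did not overlap. It sets the member with a raised mean over the member with the largest fall. The gap follows from the values above and is no separate result. This ratio was not a planned comparison and is given with no test.

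Genes with the most similar profile were found from the root mean square difference over the 8 libraries between log2 values, each centred on its own wild-type mean. For Grin1 these were Ap2a1 (0.029), Cecr6 and Fam219a, and for Grin2a they included Dync1h1 (0.040) and Cacna1c. For Grin2b they were Herc1 (0.017), Syne1 and Chd6, and for Grin2c Smox (0.016), Arc and Neurl1a. For Grin2d they were Gm7120 (0.046), Shb and Syt9, and for Grin3a they included Scn3b (0.028) and Hsph1. Within the family the closest pair was Grin2a and Grin2b (0.059), which ranked 28th among all genes for Grin2a and 67th for Grin2b. The longest transcripts of Herc1, Syne1 and Chd6 have 15153, 28204 and 10515 bases, where that of Grin2b has 7484. The part of transcript length in these likenesses was not tested.

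Other genes of the receptor's pathway were read from a list of 82, of which 81 were tested. In this list 20 were lower, 13 higher and 48 not called, with a median log2 fold change of -0.03. The lower share, 24.7%, and the higher share, 16.0%, stand beside 10.0% and 12.0% of all genes tested. Without Mbd2-/- replicate 4 the counts were 30 lower and 23 higher, where 17.6% and 17.9% of all genes were called. With the length trend removed they were 12 lower and 18 higher, where 6.76% and 8.05% of all genes were called, so the larger side of the split changed.

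**Figure D5:**
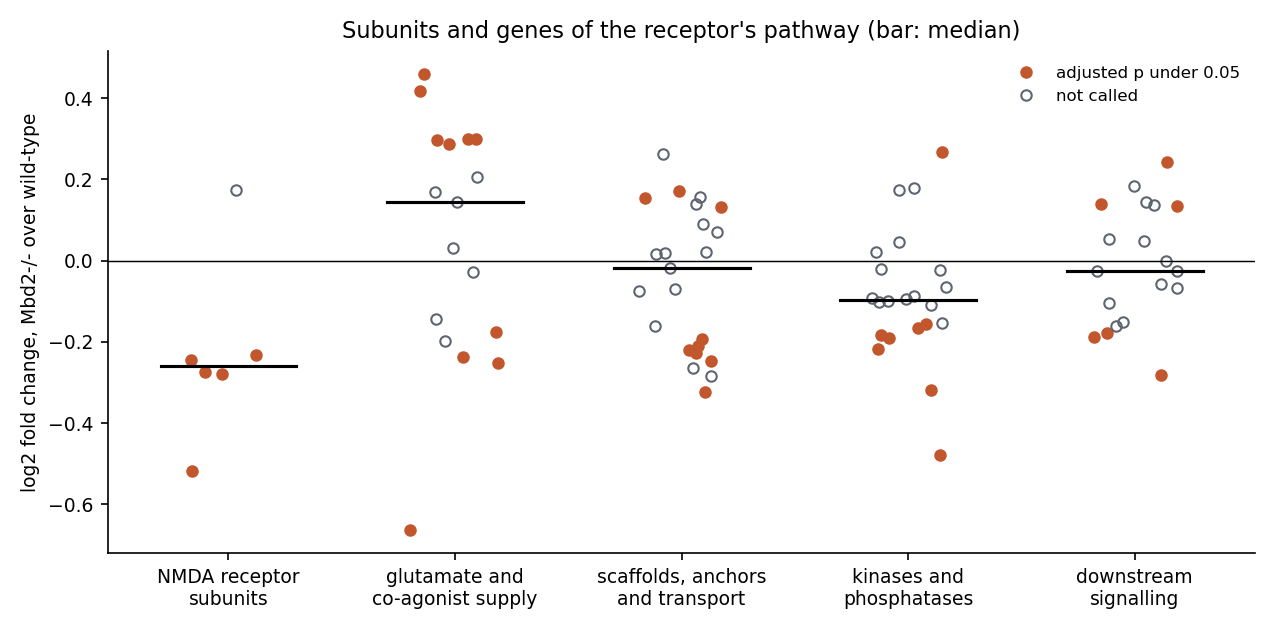
Log2 fold change, Mbd2-/- over wild-type, of the 6 subunits and of the tested genes in 4 groups of the NMDA receptor pathway list. Filled points are called genes, and bars are medians. In the supply and removal group 6 genes are called higher and 4 lower, and among kinases and phosphatases 7 are lower and 1 is higher.

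Among 17 tested genes that supply or remove glutamate and the co-agonists, 6 were higher (35.3%, against 12.0% of all genes) and 4 lower (23.5%, against 10.0%). Phgdh and Psph, enzymes of serine synthesis, rose by 0.46 and 0.42 on the log2 scale (limma adjusted p = 0.000507 and 0.00165), and Slc1a3, the glial glutamate transporter GLAST, rose by 0.30. Slc17a6, the vesicular glutamate transporter VGLUT2, fell by 0.66, and Slc6a9, the glycine transporter GlyT1, fell by 0.24. Slc17a6 is also in the thalamus list, whose markers were lower, and Slc1a3 in the astrocyte list. With the length trend removed 5 genes of the group were lower and 7 higher, where 6.76% and 8.05% of all genes were called. The named genes kept their calls, Psph with a log2 fold change of 0.26.

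Among 23 scaffold, anchor and transport genes, 6 were lower (26.1%, against 10.0% of all genes) and 3 higher (13.0%, near the 12.0% of all genes). The PSD-95 family, whose PDZ domains bind the tails of GluN2 subunits, was split: Dlg4, which encodes PSD-95, rose by 0.17 (limma adjusted p = 0.0131), Dlg3, which encodes SAP102, fell by 0.22 (limma adjusted p = 0.00487), and Dlg1 (0.02) and Dlg2 (0.07) were not called. Shank1 and Shank3, scaffolds deeper in the postsynaptic density, rose by 0.16 and 0.13. The receptor tyrosine kinase gene Ephb2 fell by 0.32, Kif17, a motor that carries GluN2B, fell by 0.25, and the anchor gene Akap5 fell by 0.23. With the length trend removed the split of this group turned, to 2 lower and 7 higher, where 6.76% and 8.05% of all genes were called. Ephb2 (log2 fold change -0.18, limma adjusted p = 0.103), Kif17 (-0.23, limma adjusted p = 0.0606) and Akap5 (-0.12, limma adjusted p = 0.1996) were then no longer called, and Dlg2 was called higher (0.15, limma adjusted p = 0.0360). Dlg3 kept its call at -0.15, Shank1 at 0.28 and Shank3 at 0.25.

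Of 22 kinases and phosphatases acting on the receptor, 7 were lower (31.8%, against 10.0% of all genes) and 1 higher (4.55%, against 12.0%). The higher gene was Camk2a, the α subunit of CaMKII, with 68037 ± 941 in wild-type and 81908 ± 1449 in Mbd2-/- libraries (log2 fold change 0.27, limma adjusted p = 0.000138). Camk2d, another CaMKII subunit, fell by 0.48 on the log2 scale, and the kinase gene Dapk1 fell by 0.22. With the length trend removed 4 genes of this group were lower and 1 higher, where 6.76% and 8.05% of all genes were called. Dapk1 was then no longer called (log2 fold change -0.12, limma adjusted p = 0.0752). Of 19 downstream signalling genes 3 were lower and 3 higher, 15.8% each, which is near the 10.0% and 12.0% of all genes and no result about this group. Nos1, neuronal nitric oxide synthase, fell by 0.28, and Tiam1, a Rac exchange factor, fell by 0.18, while Nsmf rose by 0.24 and the CREB coactivator gene Crtc1 rose by 0.14. With the length trend removed 1 downstream gene was lower and 3 were higher, beside the same 6.76% and 8.05% of all genes. Neither Nos1 (log2 fold change -0.14, limma adjusted p = 0.0931) nor Tiam1 (-0.06, limma adjusted p = 0.407) was then called. Crtc1 kept its call at 0.28.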

How the data were processed

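Hippocampal RNA was depleted of ribosomal RNA and sequenced as paired reads of 100 bases. Duplicates were discarded by the authors before STAR alignment to mm9, and DESeq2 served for their comparison of genotypes. Versions and the counting tool are not given in the sources used here. The deposited signal is a normalized count, in which each gene's reads were scaled by the library's size factor. All values were whole multiples of what 1 read is worth within 0.01 (100% in each library), so reads were recovered. The deposited fold changes and p-values of the authors hold their own comparison and were not used.

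Groups followed the sample titles. Tests covered genes whose normalized counts averaged 10 or more over the libraries, with limma 3.58.1 in R 4.3.3 (trend and robust) on log2(normalized count + 1), which understates changes of low genes. Benjamini-Hochberg adjustment ran over 14504 genes. Alternatives used edgeR 4.0.16 and DESeq2 1.42.0 on recovered reads, limma-voom, TMM and upper quartile scaling, pseudocounts of 0.5 and 5, no filter, no robust step, a replicate block, removal of a lowess trend on transcript length (span 0.3) and leaving out each library. The limma script was checked on simulated data. Lengths came from GENCODE vM1 on mm9 and promoters from RefSeq (GRCm38.p6), each matched exactly and once to mm9.

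Same-numbered libraries of the genotypes do not share animals. P-values measure the spread between pools of 2 mice. Members and lists were chosen with earlier results of these data known. Named pathway genes are the called genes with the 3 largest log2 fold changes per group and direction, and Dlg1 to Dlg4. Some genes that this rule or the likeness of profiles picks, and 1 sequence, are not reported here. A marker list of striatum (2 lower and 2 higher of 10, where 10.0% and 12.0% of all genes were) was also read.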

Additional observations from a re-analysis of the deposited data

Results flagged for a closer look

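In each group of 4 libraries the highest and the lowest value of every subunit level and share, and of the ratio of Grin2a to Grin2b, was compared with the others by Dixon's gap over the range, at the 95% critical value. Of 26 groups 3 were above it, where chance gives about 1 in 20. Grin2a in wild-type replicate 2 had a normalized count of 2642, while the other wild-type libraries had 3017 to 3064. Grin2d in Mbd2-/- replicate 4 had a normalized count of 167, while the others had 199 to 204. The share of Grin2a in Mbd2-/- replicate 4 was 26.0% of the summed level per kb, while the others had 23.2% to 23.5%. Mbd2-/- replicate 4 is the library that lacks most of the length trend of its group.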

How the results depend on the processing

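The direction of all 6 subunits was kept in each of 19 alternatives, and Grin1, Grin2a and Grin2d kept their calls in all of them. With the length trend removed, 3 subunits were called lower and 1 higher, and 12 pathway genes were called lower. Of all genes, 6.76% were then lower and 8.05% higher. Grin2b and Grin3a lost their calls with that trend removed (limma adjusted p = 0.137 and 0.0867), and Grin2c gained one. With the replicate number as a block, 1 subunit, Grin2c, was called higher (limma adjusted p = 0.0474), and 22 pathway genes were lower and 13 higher. Whether the numbers pair the libraries is not given in the sources used here. Deviations of same-numbered libraries correlated at -0.10, -0.06, 0.07 and 0.04, which cannot settle it. The block changed no other call of a subunit. Leaving out 1 library gave 4 to 5 subunits lower and 0 to 1 higher. The 4 came from Grin2b, and the 1 from Grin2c without Mbd2-/- replicate 4. For the pathway it gave 10 to 30 genes lower and 8 to 23 higher. Lower counts were 11 without wild-type replicate 1 or 3, 10 without wild-type replicate 4 and 12 without Mbd2-/- replicate 1 or 2. Higher counts were 8 without wild-type replicate 4 or Mbd2-/- replicate 2. Both maxima came without Mbd2-/- replicate 4, where 17.6% of all genes were called lower and 17.9% higher. For the block and the other libraries left out, the share of all genes called is not given here. Whether the pathway counts moved apart from that share is therefore open. Except for these losses of libraries, the length trend and the block, the cause of which was not tested, counts stayed within 1.5 times. The Grin2a to Grin2b log2 difference ranged from -0.10, with the length trend removed (exact permutation p = 0.0571), to -0.01. In the block a sign-flip test of 4 pairs cannot go below 0.125, and with 1 library left out the permutation test cannot go below 0.0571. TMM and upper quartile scaling changed no subunit call. Depth limits Grin2d most among the subunits, with 125 to 534 reads per library.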
